A study of Mus musculus with 36 samples.

Results

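Knockout (KO) and control induced pluripotent stem cell (iPSC) clones were compared by RNA-seq to ask how loss of Zfp266 alters the transcriptome of cells that have completed reprogramming. The comparison used 6 of the 36 libraries of the series, chosen by their labels, with 3 KO clones against 3 control clones. Both groups came from Cas9 TNG MKOS mouse embryonic fibroblasts, which express Cas9 from the Rosa26 locus and carry a doxycycline-inducible MKOS cassette (Myc, Klf4, Oct4 and Sox2, linked to mOrange) and a Nanog-GFP reporter with puromycin resistance. These fibroblasts derived from chimeric embryos made with a single targeted embryonic stem cell (ESC) line, and were reprogrammed among wild-type 129 fibroblasts after lentiviral delivery of a Zfp266 guide RNA (KO) or a non-targeting guide RNA (control), with doxycycline at 300 ng per ml and vitamin C at 10 µg per ml. At day 15, single cells positive for the Nanog reporter founded the clones, which were expanded without doxycycline under puromycin (1 µg per ml), and genotypes at Zfp266 were checked. Each library is 1 clone, with RNA from 100000 cells, and strain 129 is listed for all 6 iPSC libraries. Main FDR values use a spread estimated over all 36 libraries, and those of the 6-library fit use the spread between the iPSC clones alone. Parental wild-type (WT) ESCs and Zfp266 KO ESC clones derived from them by guide plasmid transfection and single-cell sorting, 3 libraries each, served for comparison. Clones are named Control 1 to 3 and KO 1 to 3 after their replicate numbers.

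ZFP266 is a Krüppel-associated box (KRAB) zinc finger protein. Proteins of this family bind DNA through zinc fingers and recruit the corepressor TRIM28, which brings histone methyltransferases and silences genes and transposable elements. An iPSC clone descends from a single founder, so a chromosome gain that the founder carried is passed on to the culture.

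The guide sequences are shown because they define the groups. The Zfp266 guide, as listed for the detailed experiments of the study, matched GENCODE transcripts of Zfp266 at chr9:20505091-20505109 on the minus strand (GRCm38), within exon 6 of 9 of the main coding transcript, at codon 62 of 603 coding codons. In the lines below the capitals mark the protospacer-adjacent motif that follows the guide in the transcript, and the non-targeting guide is given without one.
Zfp266 guide: cagaagaatctataccgagAGG
non-targeting guide: gcgaacttccgggacgcctc

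The Zfp266 transcript (ENSMUSG00000060510, chromosome 9, 20495068 to 20521417, minus strand, GRCm38) was detected in every clone. Read counts, divided by the DESeq2 size factor of each library (normalised counts), were 2529, 2817 and 2594 in control and 1954, 1892 and 2212 in KO clones, in the order of clones 1, 2 and 3, which is kept throughout. Every KO clone lay below every control clone, with a log2 fold change (log2FC, KO over control) of −0.39, a 1.31-fold difference (SE 0.07, FDR 9.95e-06, DESeq2 Wald test with Benjamini-Hochberg adjustment over all genes). In the fit of the 6 iPSC libraries the FDR was 0.0357. The count covers the whole gene and says nothing of the protein. Nothing in these values went against a label.

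Before the comparison, the clones were examined one by one. Total counts were 29670475 to 34537627 per clone, and a count of 0 allows, at 95% confidence and for counting error only, a level of up to 3 reads, equal to 2.58 to 3.03 normalised counts. None of the 25 pluripotent state genes was limited to 3 reads or fewer in every clone, and their summed level was 206528 to 225743 normalised counts in control and 215514 to 221639 in KO clones. The 25 fibroblast markers summed to 802 to 1107 and 965 to 1211 normalised counts, and 6 of them, Twist2, Prrx1, Postn, Lum, S100a4 and Fap, had at most 3 reads in every clone. Clones nevertheless stood further apart than ESC libraries. The SD over genes of the log2 ratio between a pair of libraries was 0.42 to 0.48 within control clones, 0.42 to 0.46 within KO clones and 0.42 to 0.64 between the groups, against 0.25 to 0.34 within the ESC groups. Control 3 was the clone nearest to WT ESCs, with SDs of 0.26 to 0.30, while KO 1 was farthest, with 0.54 to 0.55.

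Chromosome 8 was raised in 2 clones, one of each genotype. The median log2 ratio of its 704 genes with a mean of at least 50 normalised counts, taken against the geometric mean of the 6 clones, was 0.37 in Control 1 and 0.33 in KO 2. It was −0.15 in Control 2, −0.17 in Control 3, −0.17 in KO 1 and −0.14 in KO 3, so that these 4 clones lay well below the other two. Relative to the mean of the WT ESCs, the same medians were 0.56 in Control 1 and 0.51 in KO 2, or 1.47-fold and 1.42-fold, and between −0.01 and 0.04 in the remaining 4. The rise ran along the whole chromosome, with medians of 0.30 to 0.42 in Control 1 and 0.31 to 0.36 in KO 2 over the 7 windows of 20 Mb. Both raised clones exceeded the other 4 at 469 of the 704 genes (66.6%), against 742 of 12927 genes elsewhere (5.74%). DNA copy number was not measured. The rise was present in 1 clone of each group. The median KO over control log2FC on chromosome 8 was 0.00, and 39 of 1040 tested genes there (3.75%) were called differentially expressed. Next in size were the X chromosome in KO 2, with a median of 0.15, and chromosome 12 in KO 1, with 0.10. All other medians lay between −0.06 and 0.06.

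**Figure D1:**
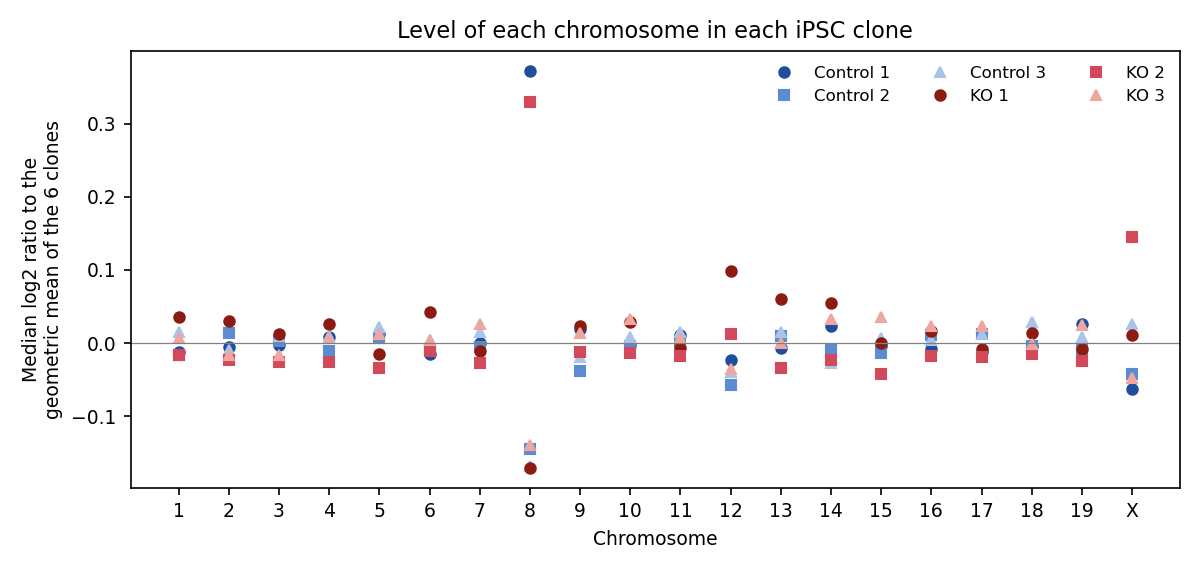
Median log2 ratio of each chromosome's genes (y axis) by chromosome (x axis) in the 6 iPSC clones, relative to the geometric mean of the clones; each point is 1 clone. Control 1 and KO 2 lie at 0.37 and 0.33 on chromosome 8, and the 4 remaining clones between −0.17 and −0.14.

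Individual clones also had genes of their own. In KO 1, 21 genes were at least 4-fold above each of the other 5 clones on the log2(normalised count + 10) scale, and none was below. Cubn, Gab2 and Aqp8 had the widest gaps. Cubn encodes cubilin, an endocytic receptor of the yolk sac and the kidney, and its counts were 7.77, 19.8 and 7.42 in control and 1035, 31.2 and 7.07 in KO clones. Gab2, a docking protein of growth factor receptors, had 4.32, 6.89 and 18.6 in control and 416, 11.3 and 17.2 in KO clones. Aqp8, a water channel, was listed at 0 in all control clones and had 177, 3.47 and 1.01 in the KO clones. Dab2, an adaptor that works with cubilin, Srgn, Amn, Gata6 and Col4a2 were among the other genes raised in KO 1 by this measure. In bulk RNA, more cells of a type and more RNA per cell cannot be told apart. In Control 2, 26 genes lay at least 4-fold below each of the others, and none above. They included the Zscan4 genes and pseudogenes, which mark a transient state resembling the early cleavage embryo, Usp17le and many predicted genes. Zscan4c counts were 319.5, 0.861 and 309.9 in control and 711, 1276 and 783 in KO clones. Zscan4f had 315, 1.72 and 318 in control and 696, 1273 and 796 in KO clones. Zscan4-ps2 had 301, 1.72 and 317 in control and 686, 1263 and 782 in KO clones. In all 3, Control 2 was near 0 and every other clone far above it. Members of this cluster are near-identical copies whose reads may be shared, so their separate values are uncertain. In KO 2, 4 genes stood above the rest. Crispld2, on chromosome 8, had 14.7, 24.1 and 36.2 in control and 6.99, 241 and 10.1 in KO clones. The Prame family gene Pramel7 had 22.5, 2.58 and 6.49 in control and 46.9, 294 and 17.2 in KO clones. Malrd1 had 1.73, 2.58 and 4.64 in control and 3.99, 60.8 and 5.05 in KO clones. The other was the predicted gene Gm49089. Pramel7 passed the test described next (FDR 0.0142) but not without Control 2 (FDR 0.078), Control 3 (FDR 0.0633) or KO 2 (FDR 0.366). Cubn, Gab2 and Aqp8 passed it and did not without KO 1 (FDR 0.548, 0.489 and 0.0622). Soga3 was low in KO 3 and had 209.9, 760.4 and 214 in control and 222, 321 and 36.4 in KO clones. In Control 1 the predicted gene Gm34425 stood apart, and no gene did so in Control 3.

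At the thresholds of the study (FDR < 0.05 and log2FC > |1|), 948 of 21020 tested genes were differentially expressed genes (DEGs) between KO and control iPSCs (4.51%). Of these, 831 were higher in KO (3.95% of genes tested) and 117 lower (0.557%). This DESeq2 fit drew the dispersion from all 36 libraries. When only the 6 iPSC libraries were fitted, so that the spread was that between clones, 342 DEGs were found, 304 higher and 38 lower, and edgeR's quasi-likelihood test on the same 6 libraries called none. Its smallest FDR was 0.138, with 2673 of 17916 genes at an unadjusted p under 0.05. By FDR alone, 9.72% of tested genes were higher and 6.63% lower in the 36-library fit, 2.37% and 0.877% in the 6-library fit, and 2.35% and 0.864% of 18744 genes tested in both fits were so in both. Gene groups below are given by FDR alone in the 36-library fit, with the number that also passed in the 6-library fit. Their lists were chosen with earlier results of these data known, so their shares beside those of all genes are descriptions. Of the 948 DEGs, 687 (72.5%) had no overlap between KO and control clones, against 19.6% of all tested genes. The calls use these same counts, so a high share follows in part from the selection and is a description. Among the 831 higher DEGs, all 3 KO clones exceeded every control clone in 614, 2 did so in 203 and 1 in 14. KO 1 was the highest clone in 476 of them (57.3%) and Control 2 the lowest control in 487 (58.6%). Without KO 1, 511 DEGs were found, 65 of them lower, and without Control 2, 611, 72 of them lower. The lower DEGs numbered 176 without Control 1 and 188 without KO 2. Leaving out the pair with raised chromosome 8 gave 1194, 213 of them lower. All 3 criteria, DEG, FDR in the 6-library fit and no overlap, were met by 329 genes (1.76%), 294 higher and 35 lower. In the 6-library fit, 100 of these 329 passed without KO 1 and 156 without Control 2.

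The 15 genes with the lowest FDR among those 294 are described first. Their values were used to choose them, and their separation is a description. Zc3hav1 (chromosome 6, 38305286 to 38354603) encodes ZAP, an antiviral protein that binds CpG-rich RNA and promotes its decay. Its counts were 332, 402 and 507 in control and 1717, 1585 and 836 in KO clones. KO 3 was the lowest KO clone and still exceeded every control, with log2FC 1.74 (SE 0.16, FDR 4.47e-24) and FDR 1.22e-06 in the 6-library fit. Atp9a, a phospholipid flippase of endosomes, had 286, 232 and 435 in control and 1076, 681 and 855 in KO clones, and log2FC 1.46 (SE 0.15, FDR 1.65e-19). Lpar1, a receptor for lysophosphatidic acid, had 201, 143 and 255 in control and 645, 650.1 and 339 in KO clones, where KO 3 was the KO clone nearest to the controls. Igfbp4, a secreted binding protein of insulin-like growth factors, had 49.2, 35.3 and 48.2 in control and 427, 125 and 246 in KO clones, with log2FC 2.59 (SE 0.29, FDR 8.59e-16). The KO clones of Igfbp4 were widely spread, and the control clones were close together. Tinagl1, a matrix protein of the cathepsin family without protease activity, had 25.9, 16.4 and 29.7 in control and 123, 81.6 and 67.7 in KO clones.

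The widest separation among these genes was that of Smc1b (chromosome 15, 85064689 to 85131964), the meiosis-specific cohesin subunit. Counts were 32, 15.5 and 62.2 in control and 899, 461 and 567 in KO clones, and log2FC 4.14 (SE 0.49, FDR 2.66e-14). The lowest KO clone lay far above the highest control, with a fitted difference of 17.6-fold. Without Control 3 the log2FC was 4.76. Stk31, a germ cell kinase with a Tudor domain, had 212, 160.2 and 168 in control and 555, 449 and 412 in KO clones, and the groups were well apart. Nupr1, a stress-induced chromatin protein that ATF4 activates, had 104, 32.7 and 70.5 in control and 289.5, 209 and 355 in KO clones. Crxos, an Obox-related homeobox gene, had 32.8, 12.9 and 12.1 in control and 149, 155 and 139 in KO clones, and its 3 KO clones were almost level. Its log2FC was 2.94, and 3.57 without Control 1. Elf4, an ETS transcription factor, had 60.5, 39.6 and 55.7 in control and 226, 228 and 79.8 in KO clones. Here KO 3 was nearest to the controls, as it was for Acaa2, a mitochondrial enzyme of fatty acid oxidation, with 629, 579 and 466 in control and 1692, 1335 and 856 in KO clones. P2rx4, an ATP-gated channel, Zc3h6, a zinc finger RNA-binding protein, Tfpi, an inhibitor of coagulation, and Sorcs2, a sorting receptor, had log2FC of 1.43, 2.19, 1.55 and 1.62. Zc3h6 shares exonic sequence with predicted genes on either strand, and reads of overlapping genes were not separated here.

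**Figure D2:**
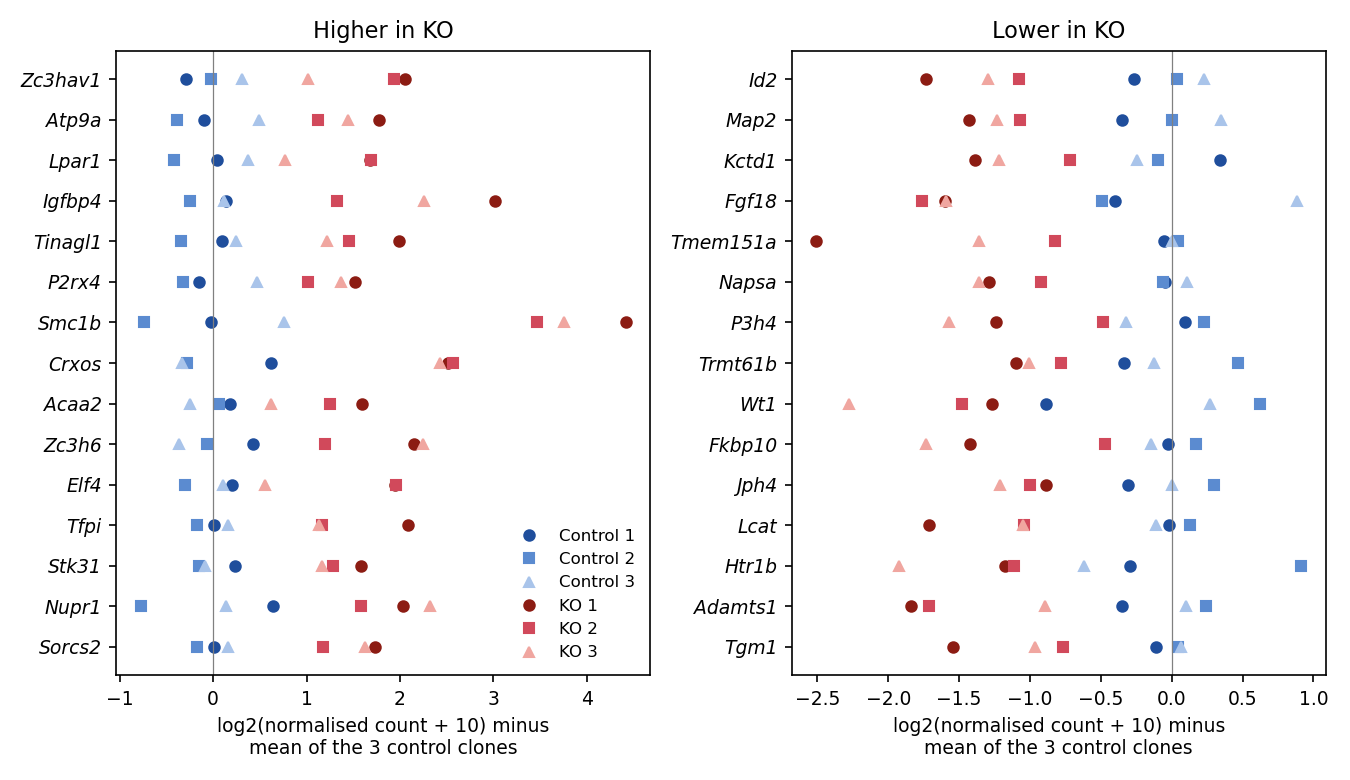
The 15 higher and 15 lower genes with the lowest FDR that met the 3 criteria; the x axis is log2(normalised count + 10) minus the mean of the control clones, and each point is 1 clone. No KO clone overlaps a control clone in any row, which the choice of genes fixes, and Smc1b lies farthest to the right.

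Among the 35 genes lower in KO, Id2 had the lowest FDR. Id2 encodes an inhibitor of basic helix-loop-helix transcription factors and is a target of bone morphogenetic protein (BMP) signalling. Its counts were 643, 796 and 910.2 in control and 226, 363 and 310.1 in KO clones, and log2FC −1.38 (SE 0.13, FDR 4.47e-24), a fitted 2.61-fold difference. Map2, a neuronal microtubule-associated protein, had 459, 587 and 747 in control and 212, 273 and 243 in KO clones, with log2FC −1.30 (SE 0.13, FDR 2.25e-18). In neither gene did any clone of a group reach the other group, which the choice of the named lower genes fixes. Fgf18, a secreted fibroblast growth factor, had 33.7, 31 and 96.5 in control and 8.98, 6.94 and 9.09 in KO clones, and Control 3 was far above the other controls. Its log2FC was −2.69, and −1.96 without Control 3. Tmem151a had 127, 137 and 133 in control and 15, 70.3 and 45.5 in KO clones, where KO 1 was lowest. Napsa, an aspartic protease, had 766, 755 and 853 in control and 317, 412 and 302 in KO clones, and Tgm1, the transglutaminase of cornified epithelia, had 704, 789 and 799 in control and 256, 444 and 386 in KO clones. Wt1, the Wilms tumour zinc finger factor, had 79.5, 245 and 189 in control and 58.9, 49.5 and 24.2 in KO clones. Control 1 lay near KO 1 for this gene. Fkbp10, a collagen chaperone, had 468, 538 and 431 in control and 172, 342 and 136 in KO clones. P3h4, which acts in collagen hydroxylation, had 408, 449 and 304 in control and 156, 271 and 122 in KO clones. KO 2 was the KO clone nearest to the controls for both. Kctd1, Trmt61b (a mitochondrial tRNA methyltransferase), Jph4 (a junctophilin), Lcat (lecithin-cholesterol acyltransferase), Htr1b (a serotonin receptor) and Adamts1 (a secreted metalloprotease) had log2FC of −1.18, −1.05, −1.22, −1.61, −2.07 and −1.69. That of Htr1b was −1.32 without Control 2. Exons of Trmt61b, Fkbp10, Htr1b, Map2, Napsa, Kctd1 and Tgm1 overlap genes of the opposite strand. Whether the counting used strand is not given in the sources used here.

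Meiotic and piRNA genes were higher in KO as a group. These genes act in chromosome pairing and in silencing transposons during germ cell development, and many are kept silent elsewhere by promoter methylation and by the non-canonical Polycomb complex PRC1.6. Of 39 tested members, 18 were higher (46.2%, against 9.72% of all genes) and none lower, 13 of the 18 also in the 6-library fit. The median log2FC was 0.93, against 0.02 over all genes tested. Without KO 1, 12 were higher. The list was chosen with earlier results of these data known, so its share is a description. Meiotic chromosome proteins were led by Smc1b, with Hormad1 at 147, 177 and 398 in control and 1101, 631 and 829 in KO clones and log2FC 1.83 (SE 0.34, FDR 4.97e-06). Hormad1 marks unsynapsed axes, and Control 3 was its highest control. Dmc1, the meiotic recombinase, had 314, 187 and 183 in control and 563, 333 and 406 in KO clones, where Control 1 and KO 2 nearly met. Meioc and Syce1 had log2FC of 0.94 and 0.85. Stra8, the retinoic acid-induced gene of meiotic entry, had 17.3, 12.1 and 56.6 in control and 116, 101 and 158 in KO clones. Of the piRNA genes, Piwil2 encodes a PIWI protein, with 316, 219 and 135 in control and 489, 442 and 435 in KO clones. Mael, a piRNA factor of the nuage, had 66.5, 86.1 and 211 in control and 551, 183 and 431 in KO clones, and Control 3 exceeded KO 2. Mov10l1, Tdrd9, Tdrd7, Gtsf1 and Tex11 had log2FC of 1.12, 1.66, 1.11, 1.65 and 1.25. Dazl, the RNA-binding protein of germ cells, had 68.2, 115 and 124 in control and 265, 185 and 158 in KO clones, and was not past the threshold in the 6-library fit (FDR 0.0639). X-linked members were Taf7l with 19, 15.5 and 28.8 in control and 129.8, 55.6 and 53.5 in KO clones, Rhox5 with 46.6, 42.2 and 254 in control and 588, 803 and 473 in KO clones, and Xlr3a with 15.5, 7.75 and 23.2 in control and 42.9, 135 and 51.5 in KO clones. Rhox5 did not pass in the 6-library fit (FDR 0.0862), and Control 3 was well above the other controls. Xlr3a, Xlr3b and Xlr3c are near-identical copies, so their values are uncertain. The log2FC of Xlr3a was 2.32, and 1.62 without KO 2.

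Promoters of germline genes are often bound by PRC1.6 through the MGA and MAX pair, which recognises the E-box CACGTG. The 250 bases before each RefSeq transcription start (GRCm38.p6) were searched for these letters, which read the same on both strands. A match was found in 6 of 16 higher germline genes with a promoter entry (37.5%), 7 of 19 other members of the list (36.8%) and 6.86% of 27025 genes in all. The promoters of Hormad1 (chr3:95559427-95559676, plus strand) and Stk31 (chr6:49395354-49395603, plus strand) are shown as examples of higher genes with the match, which is in capitals.
Hormad1: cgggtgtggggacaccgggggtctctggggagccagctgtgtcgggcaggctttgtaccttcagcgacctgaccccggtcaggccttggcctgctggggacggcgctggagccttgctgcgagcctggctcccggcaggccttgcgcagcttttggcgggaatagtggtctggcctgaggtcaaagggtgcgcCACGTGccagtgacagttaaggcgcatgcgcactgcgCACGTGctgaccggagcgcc
Stk31: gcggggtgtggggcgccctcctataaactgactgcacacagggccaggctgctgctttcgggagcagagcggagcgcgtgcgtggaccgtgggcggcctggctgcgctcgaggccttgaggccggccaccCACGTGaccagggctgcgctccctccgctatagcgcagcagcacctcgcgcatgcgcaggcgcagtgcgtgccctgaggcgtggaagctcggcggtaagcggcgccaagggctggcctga

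Genes of the ATF4 amino acid response were also higher in KO as a group. ATF4 is the transcription factor whose translation rises when amino acids are short or the endoplasmic reticulum is stressed, and it activates amino acid transport, synthesis and tRNA charging. Of 42 tested members, 18 were higher in both fits, and the median log2FC was 0.48. In the 36-library fit, 27 were higher (64.3%, against 9.72% of all genes tested) and none lower. The count was 23 to 28 when any single iPSC library was left out. This list too was chosen with earlier results of these data known. Transporters included Slc7a1, a carrier of cationic amino acids, with 1113, 1245 and 1008 in control and 2836, 2099.7 and 2194 in KO clones and log2FC 1.08 (SE 0.15, FDR 5.57e-10). Slc6a9, a glycine transporter, had 78.6, 51.7 and 48.2 in control and 156, 94.6 and 235 in KO clones. Slc1a4, a neutral amino acid transporter, had 389, 310.0 and 425 in control and 741, 416 and 1436 in KO clones. KO 2 was close to Control 3 for Slc1a4, and the groups overlapped. Among enzymes, Asns, asparagine synthetase, had 3726, 4055 and 2712 in control and 8162, 5511 and 7375 in KO clones. Every KO clone was above every control. Psat1, Mthfd2, Pycr1 and Aldh18a1, of serine, one-carbon and proline metabolism, had log2FC of 0.62, 0.67, 0.95 and 0.76. Aldh1l2, a mitochondrial folate enzyme, had 43.2, 37.9 and 12.1 in control and 119.8, 82.5 and 118 in KO clones, and Pck2, mitochondrial phosphoenolpyruvate carboxykinase, 332, 406 and 379 in control and 1026, 523 and 1149 in KO clones. Of the regulators, Ddit3 (CHOP) had 82.9, 90.4 and 133 in control and 312, 216 and 328 in KO clones and Trib3 383, 456 and 481 in control and 726, 587 and 932 in KO clones, with no overlap in either. Chac1, which degrades glutathione, had 125, 70.6 and 90.9 in control and 209.6, 168 and 369.7 in KO clones. Atf4 itself had 3344, 3201 and 3776 in control and 4136, 4037 and 5857 in KO clones, with log2FC 0.44 (SE 0.15, FDR 0.0305), and did not pass in the 6-library fit (FDR 0.205). Enzymes that charge tRNAs had log2FC of 0.49 for Nars, 0.45 for Aars, 0.39 for Mars, 0.36 for Iars and 0.27 for Wars. Aars lies on chromosome 8, and its counts of 12800.2, 7646 and 7988 in control and 11478, 15874 and 11564 in KO clones were highest in the raised clones Control 1 and KO 2.

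ATF4 binds, as a dimer with C/EBP proteins, an element written TGATGNAA. On either strand of the same 250-base windows, it was found in 8 of 23 higher members with a promoter entry (34.8%), 2 of 12 other members (16.7%) and 3.91% of all genes. The list consists largely of known ATF4 targets, so such matches come with its choice. The promoters of Asns (chr6:7693210-7693459, minus strand), Nupr1 (chr7:126625471-126625720, minus strand) and Chac1 (chr2:119350992-119351241, plus strand) are given with the element in capitals, as examples of the genes just described.
Asns: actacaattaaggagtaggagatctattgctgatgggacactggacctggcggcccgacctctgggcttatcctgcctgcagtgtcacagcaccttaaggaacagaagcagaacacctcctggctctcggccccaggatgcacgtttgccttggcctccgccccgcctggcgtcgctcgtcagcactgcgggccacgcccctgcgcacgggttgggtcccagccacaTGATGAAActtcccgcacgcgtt
Nupr1: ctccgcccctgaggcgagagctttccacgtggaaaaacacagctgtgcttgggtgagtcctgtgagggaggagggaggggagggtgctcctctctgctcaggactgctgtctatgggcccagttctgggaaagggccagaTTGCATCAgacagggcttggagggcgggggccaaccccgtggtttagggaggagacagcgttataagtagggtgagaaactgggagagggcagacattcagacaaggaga
Chac1: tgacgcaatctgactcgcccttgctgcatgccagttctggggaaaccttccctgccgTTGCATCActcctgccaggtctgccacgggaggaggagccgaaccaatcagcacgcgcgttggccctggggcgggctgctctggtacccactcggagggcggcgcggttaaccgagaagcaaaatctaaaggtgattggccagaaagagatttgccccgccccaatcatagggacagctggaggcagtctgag

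**Figure D3:**
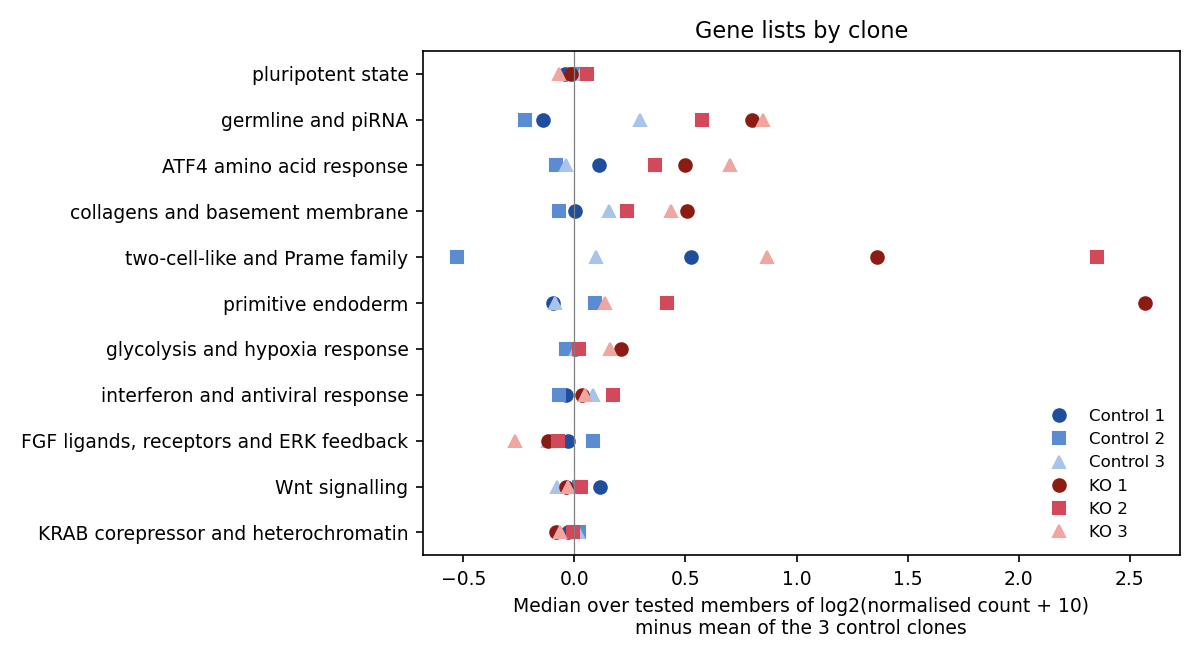
Median over the tested members of 11 gene lists (rows) of log2(normalised count + 10) minus the mean of the control clones (x axis), with 1 point per clone. The KO clones lie above every control clone for germline genes (0.57 to 0.85) and ATF4 response genes (0.36 to 0.70). They also do so for the collagen, two-cell-like, primitive endoderm and glycolysis lists, by little in KO 2 for glycolysis (0.02). The primitive endoderm list is far to the right in KO 1 (2.57), with KO 2 at 0.42 and KO 3 at 0.14.

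Few pluripotency genes passed the test. Of 25 genes, 2 were higher (8%, against 9.72% of all genes tested) and 2 lower (8%, against 6.63%). The median log2FC was 0.08. Pou5f1, which encodes Oct4, had 32728, 44549.6 and 37292 in control and 37832, 34921 and 30729 in KO clones. Sox2, its partner on DNA, had 13215, 12621 and 13734 in control and 12948, 12521 and 15067 in KO clones. Nanog had 4853, 5619 and 6216 in control and 7067, 7142 and 6757 in KO clones, and Esrrb, an orphan nuclear receptor, 17692, 17723 and 17886 in control and 15827, 18583 and 16549 in KO clones. The FDR was 0.385, 0.94, 0.0929 and 0.767, none past the threshold, and reads of Pou5f1 and Sox2 may include the transgene. Nanog lay above every control clone in all KO clones. It passed without Control 3 (FDR 0.0459) and in the fit of the 12 iPSC and ESC libraries (FDR 0.0146), but not in the 6-library fit. Tbx3, a T-box factor of the naive state, was higher, with 1746, 1667 and 1475 in control and 4490.4, 4146 and 2458 in KO clones and log2FC 1.18 (SE 0.20, FDR 2.61e-07). Dppa3, a maternal-effect and primordial germ cell gene, had 122, 54.3 and 157 in control and 206, 389 and 969 in KO clones, and its KO clones differed among themselves. Lin28a, which binds let-7 precursors, had 11482, 12834 and 15856 in control and 8369, 9522 and 11712 in KO clones, and Tdh, threonine dehydrogenase, 15545, 17687 and 16326 in control and 11692, 15228 and 11379 in KO clones. Lin28a and Tdh passed in the 36-library fit and not in the 6-library fit (FDR 0.152 and FDR 0.172). Of the primed and formative list, 2 of 19 were higher, Zic2 with 557, 302 and 469 in control and 1281, 943 and 840.5 in KO clones, and Krt18, high in KO 3. No gene of the mesoderm and primitive streak list passed out of 9 tested.

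Signalling genes moved in small numbers. BMP pathway genes gave 2 higher and 3 lower of 26. Besides Id2, Id1 fell, with 1221, 1557 and 1382 in control and 831, 831 and 503 in KO clones and log2FC −0.94 (SE 0.18, FDR 5.53e-06), and both passed in the 6-library fit. Grem1, a secreted BMP antagonist, was lower in the 36-library fit, with 6.91, 35.3 and 16.7 in control and 2, 6.08 and 2.02 in KO clones. Smad7, an inhibitory SMAD, and Bmpr1a, a BMP receptor, were higher, with log2FC of 0.69 and 0.18. Without KO 1, none was higher and 3 were lower, without Control 1, 5 and 4, without Control 3, 1 and 3, without KO 2, 1 and 4, without Control 2, 2 and 2, and without both clones with raised chromosome 8, 3 and 5. Of 37 Wnt pathway genes, 4 were lower and 1 higher. Sp5, a transcriptional target of Wnt, had 32, 164 and 113 in control and 6.99, 24.3 and 21.2 in KO clones, and log2FC −2.55 (SE 0.48, FDR 7.22e-06). Dkk1, a secreted Wnt inhibitor, had 0, 1.72 and 0 in control and 24, 6.08 and 12.1 in KO clones (FDR 0.0143), but not without Control 3 (FDR 0.0516). Notum, Sfrp2 and Fzd2 had log2FC of −0.89, −0.55 and −0.53 and passed in the 36-library fit only. Without KO 1, 1 gene of the list was lower and none higher. Without Control 3, 4 were lower and none higher, without Control 2, 3 and 2, without KO 3, 4 and 2, and without Control 1, or both clones with raised chromosome 8, 3 were lower and 3 higher. Of 30 FGF and ERK feedback genes, 5 were lower and 2 higher. Next to Fgf18, the ligand Fgf17 had 266, 443 and 268 in control and 57.9, 121 and 207 in KO clones, with log2FC −1.34, and it did not pass without Control 2 (FDR 0.113). The feedback inhibitor Spry2 had 4119, 5036 and 3975 in control and 3323, 3219 and 2810.4 in KO clones, and did not pass without Control 2 (FDR 0.174) or KO 3 (FDR 0.0994). Fgfr4, a receptor, had 76.9, 80.9 and 69.6 in control and 182, 149 and 134 in KO clones and was higher. The lower count of this list was 1 without Control 2, 2 without KO 3 and 4 to 6 without any other clone. Of 17 LIF and STAT3 genes, 3 were lower, and Socs2, a feedback inhibitor of cytokine receptors, had 3309, 3885 and 3774 in control and 2230.2, 2408 and 2384 in KO clones, with log2FC −0.64 (SE 0.12, FDR 5.51e-06). Cish, another member of that family, had log2FC −0.77 and Jak2, a receptor-associated kinase, 0.57. The lower count was 2 without Control 2, Control 3 or KO 1, 4 without Control 1, KO 2 or KO 3, and 8 without both clones with raised chromosome 8. The shares lower were 11.5% for BMP, 10.8% for Wnt, 16.7% for FGF and 17.6% for LIF genes, against 6.63% of all genes tested. The shares higher were 7.69%, 2.7%, 6.67% and 5.88% in the same order, against 9.72%. Of 14 Nodal pathway genes, 4 were higher (28.6%, against 9.72% of all genes tested) and none lower. The 4 included Acvr1b, a receptor, and the proprotein convertases Furin and Pcsk6, with log2FC of 0.44, 0.64 and 0.46. None of the 4 passed in the 6-library fit, and the higher count was 1 without Control 3 or KO 1, 2 without Control 2, and 3 to 5 without any other clone.

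Most genes of the KRAB pathway and of chromatin did not pass the test. Among all genes tested, 9.72% were higher and 6.63% lower by FDR alone. Of 27 corepressor and heterochromatin genes, 6 were lower (22.2%) and none higher, at log2FC between −0.36 and −0.19. Ehmt2, the H3K9 methyltransferase G9a, had 6332, 5894 and 6484 in control and 5210.2, 4389.6 and 4961 in KO clones, and it was the only one past the threshold in the 6-library fit (FDR 0.0306). Trim28, the corepressor itself, had 49733, 59129 and 59343 in control and 44880.4, 48677 and 48156 in KO clones. The list median was −0.06. The lower count was 3 (with 1 higher) without Control 3, 4 without Control 2 or KO 1, and 8 without Control 1. Of 36 DNA methylation and Polycomb genes, 5 were higher (13.9%) and 4 lower (11.1%). Suz12, a core subunit of Polycomb repressive complex 2, rose in every KO clone, with 8116, 7817 and 8103 in control and 11106, 10392 and 10750.5 in KO clones and log2FC 0.42 (SE 0.06, FDR 5.59e-10). Epop, an accessory subunit of the same complex, had 7442, 8009 and 7862 in control and 3919, 6261 and 5403 in KO clones, with log2FC −0.58. Both passed in the 6-library fit. Without KO 1, 2 of the list were higher and 3 lower, and without Control 2, 3 and 2. Imprinted genes were mixed, with 8 higher (15.1%) and 5 lower (9.43%) of 53. Mest, a paternally expressed gene, had 6930.3, 4281 and 4948 in control and 2308, 3131 and 2801 in KO clones, with log2FC −0.97 (SE 0.17, FDR 1.17e-06). Copg2, which overlaps Mest on the opposite strand, had 1695, 1202 and 1354 in control and 2297, 1755 and 2288 in KO clones and the opposite direction, with log2FC 0.58. Xlr3b had 26.8, 18.9 and 36.2 in control and 84.9, 193 and 71.7 in KO clones, with KO 2 highest. Without KO 1, 4 were higher and 4 lower, without Control 1, 6 and 7, without Control 2, 7 and 2, and without Control 3, 10 and 2.

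Of 36 glycolysis and hypoxia genes, 10 were higher (27.8%) and 2 lower (5.56%), against 9.72% and 6.63% of all genes tested. Of the higher genes, 4 also passed in the 6-library fit. Vegfa, a hypoxia-induced angiogenic factor that ATF4 also activates, had 335, 359 and 252 in control and 743, 536 and 869.8 in KO clones, and P4ha2, a collagen prolyl hydroxylase, 181, 143 and 185 in control and 616, 239 and 303 in KO clones. Pfkp, the platelet isoform of phosphofructokinase, had 7755, 7928 and 8736 in control and 17432, 13674 and 14686 in KO clones, with log2FC 0.91 (SE 0.10, FDR 1.17e-17), and Hk1, hexokinase, 1182, 673 and 1013 in control and 2086, 1512 and 1949.7 in KO clones. The groups did not overlap in any of the 4, which follows in part from their choice among genes that passed. Over the whole list, 12 of 36 had no overlap, against 19.6% of all genes tested. Eno1 and Pgam1, enzymes of lower glycolysis, were lower, at log2FC −0.24 and −0.22. Only Ebp of 23 cholesterol synthesis genes passed, at log2FC 0.55. Of 36 cell cycle and replication genes, 6 were lower (16.7%) and 3 higher (8.33%), and 6 and 5 without Control 1. Ccne1 (cyclin E1) had 4558, 6806 and 5733 in control and 3221, 3279 and 3352 in KO clones, and Cdk6 1341, 1274 and 1273 in control and 941, 854 and 825 in KO clones, and both passed in the 6-library fit. Of the 4 reprogramming factors, only Myc passed. Its reads may include the transgene, and it had 1143, 2029.7 and 1198 in control and 975, 805 and 798 in KO clones, with log2FC −0.76. It did not pass without Control 2 (FDR 0.104). Of 26 p53 targets, 3 were higher. These were Cdkn1a, a cyclin-dependent kinase inhibitor, with 464, 632 and 666 in control and 956, 991 and 739 in KO clones, Sesn1, a stress sensor, with 279, 255 and 320.1 in control and 562, 444 and 451 in KO clones, and Gdf15, a secreted stress factor, with 65.6, 56.8 and 68.7 in control and 146, 148 and 141 in KO clones. Gdf15 is also an ATF4 target. Without Control 1, in which the list's median was lowest (−0.36 from the control mean), 4 targets were higher and 5 lower, and without both clones with raised chromosome 8, 2 and 5.

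In lists of matrix, surface and other lineages, counts moved when 1 clone was left out. Of 32 collagen and basement membrane genes, 11 were higher (34.4%) and none lower, against 9.72% and 6.63% of all genes tested. Col4a2 and Col5a2, 2 of the 11, passed in both fits. Without KO 1, 5 were higher. Col5a2 had 5.18, 18.9 and 11.1 in control and 66.9, 46.9 and 35.4 in KO clones. The neural list gave 3 lower and 3 higher of 18 (1 and 0 without KO 1, 5 and 4 without KO 2), with Nefl, neurofilament light chain, at 955, 2091 and 1094 in control and 821, 719.6 and 449 in KO clones. Nefm overlaps it on the opposite strand. The Nefl FDR of 0.0495 rose to between 0.0578 and 0.405 without Control 2 or any 1 KO clone. Spint1, an epithelial protease inhibitor, had 807, 896 and 815 in control and 1413, 1289.9 and 1033 in KO clones, and did not pass without KO 1 (FDR 0.107). The epithelial list gave 4 higher (14.3%) and 2 lower (7.14%) of 28. It gave 1 and 5 without KO 3, 1 and 3 without Control 2, and 2 and 1 without KO 1. Krt8 and Krt18, keratins of simple epithelia, were high in KO 3. Krt8 had 132, 123 and 193 in control and 235, 115 and 815 in KO clones. Krt18 had 148, 87 and 173 in control and 207, 109 and 851 in KO clones. Of 37 cytoskeleton genes, 2 were higher and 5 lower, with 4 higher without Control 3 or KO 2. Cdc42ep1, an effector of the GTPase CDC42, had 51, 45.6 and 23.2 in control and 92.8, 101 and 103 in KO clones, and Ccn2, a matricellular protein, 904, 994 and 889 in control and 496, 631 and 552 in KO clones. Integrins and cadherins gave 2 higher and 3 lower of 27, and axon guidance genes 2 higher and 3 lower of 47, none in both fits. Near the detection floor among these, Pcdh10, a protocadherin, had 6.05, 3.44 and 4.64 in control and 0.998, 0 and 0 in KO clones, and Dcc, a netrin receptor, 2.59, 0 and 4.64 in control and 18, 24.3 and 5.05 in KO clones. Without KO 1, no gene of either list was higher, and without Control 2 no axon guidance gene was. Of 25 fibroblast markers, 4 were higher and 1 lower, none in both fits, with Col1a2 at 2.59, 0 and 3.71 in control and 7.99, 4.34 and 58.6 in KO clones. Of 11 trophoblast genes, 3 were higher, Hand1, Ascl2 and Krt7, with log2FC of 1.5, 1.02 and 2.87, none in both fits and 1 without Control 1 or KO 3. Of 45 interferon and antiviral genes, 9 were higher (20%) and none lower, and only Zc3hav1 passed in both fits. Without KO 1 or Control 2, 4 were higher, and 8 to 12 without any other clone.

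Primitive endoderm genes, of the extraembryonic lineage that forms part of the yolk sac, were mostly highest in KO 1. Of 17 tested genes, 12 were higher in the 36-library fit (70.6%, against 9.72% of all genes tested). Of these 12, 3 also passed in the 6-library fit, but KO 1 was the highest KO clone in 15 of the 17. Without KO 1, 5 were higher and the median log2FC was 0.37 instead of 1.79, and without any other clone 8 to 13 were higher. Transcription factors of this lineage included Gata6, with 17.3, 42.2 and 7.42 in control and 204, 12.2 and 16.2 in KO clones, Gata4, with 98.4, 43.1 and 39.9 in control and 255, 78.1 and 45.5 in KO clones, and Sox17, with 2.59, 3.44 and 1.86 in control and 64.9, 1.74 and 11.1 in KO clones. All were highest in KO 1. Of the endocytic genes, Dab2 had 38.9, 33.6 and 63.1 in control and 649, 46 and 69.7 in KO clones. Amn had 6.05, 5.17 and 7.42 in control and 155, 22.6 and 10.1 in KO clones. The basement membrane gene Col4a1 had 235, 304 and 223 in control and 4846, 1408 and 303 in KO clones. Col4a2, which lies beside it on chromosome 8, had 95.9, 95.6 and 73.3 in control and 2150.4, 376 and 148 in KO clones. KO 2 was next after KO 1 in both. This chromosome was raised in KO 2 and in Control 1, and Control 1 was near the other controls for both genes. A link to the raised chromosome was not tested. The log2FC of Col4a2 was 3.34, and 1.57 without KO 1. Srgn, a proteoglycan core protein, had 6.05, 0 and 0 in control and 317, 14.8 and 29.3 in KO clones. Hnf4a, a nuclear receptor of visceral endoderm, stood apart from this order, with 33.7, 4.31 and 5.57 in control and 217, 228 and 82.8 in KO clones, log2FC 3.60 (SE 0.65, FDR 2.3e-06) and FDR 3.42e-05 in the 6-library fit. Without Control 1, its highest control, the log2FC was 5.16. The summed level of the list was 4891 to 7654 normalised counts in controls, 25009 in KO 1, 12119 in KO 2 and 6873 in KO 3, while Afp had at most 3 reads in every clone.

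Genes of the two-cell-like state and the Prame family were often highest in KO 2. Of 16 tested genes, 10 were higher (62.5%) and none lower, against 9.72% and 6.63% of all genes tested, and 3 passed in both fits. KO 2 was the highest KO clone in 13 of the 16. Without KO 2, 5 were higher, and 7 without Control 2, Control 3 or KO 1. Usp17lc, a deubiquitinase of this cluster, had 32, 2.58 and 21.3 in control and 81.9, 136 and 64.7 in KO clones, and Tcstv1 had 12.1, 0 and 1.86 in control and 29.9, 64.2 and 18.2 in KO clones. Zscan4c and Zscan4f did not pass in the 36-library fit (FDR 0.305 and FDR 0.0827), but did so without Control 2 (FDR 1.85e-05 and 4.43e-05). Pramef8 had 384, 467 and 442 in control and 717, 657 and 986 in KO clones, and Pramef17 19, 18.9 and 17.6 in control and 300.5, 193 and 31.3 in KO clones, where KO 3 was near the controls. These families hold many near-identical copies.

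**Figure D4:**
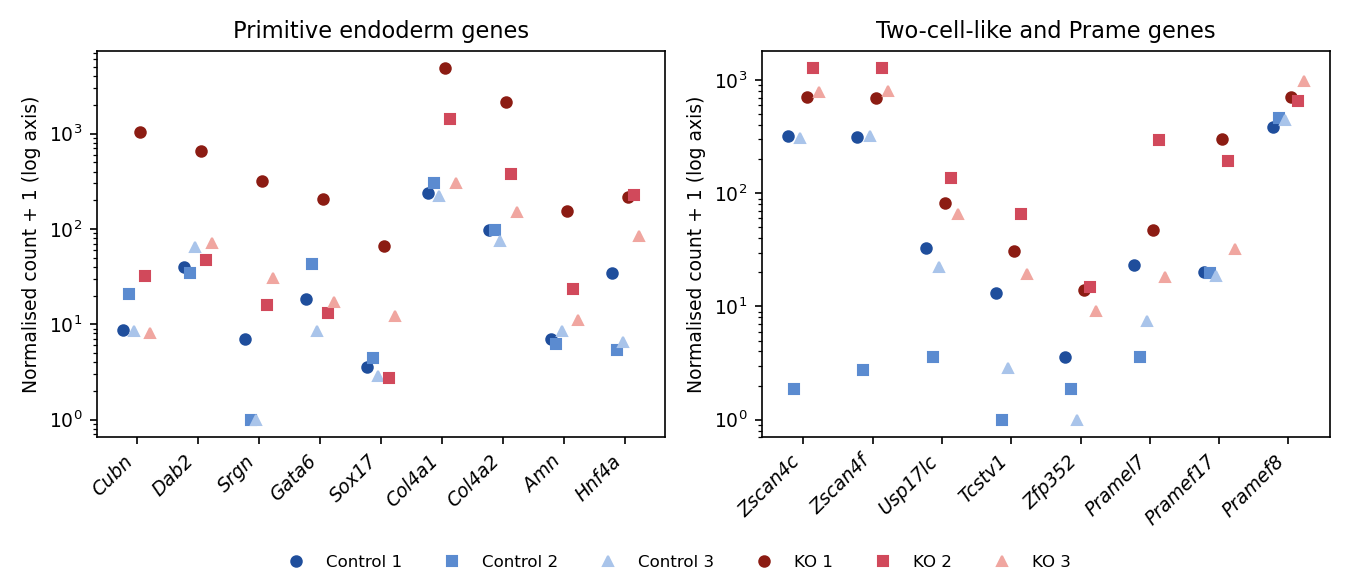
Normalised counts plus 1 (y axis, log scale) of primitive endoderm genes (left) and two-cell-like and Prame family genes (right) in each clone; each point is 1 clone. KO 1 is highest for Cubn (1035), Dab2 (649) and Srgn (317), and Control 2 is at the bottom for Zscan4c (0.861) and Zscan4f (1.72).

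On the X chromosome, 63 of 856 tested genes were DEGs (7.36%), 59 of them higher, and on the autosomes 3.12% to 6.04% were. This difference was not tested. The X chromosome was also raised in KO 2 (median log2 ratio 0.15), and without KO 2 there were 55 X-linked DEGs (6.43%). Without Control 2 there were 42 (5.02%), and without KO 1, 43 (5.16%). The 6-library fit gave 35 of 786 (4.45%). Fthl17c, the Xlr3 genes, Usp26, Tex11, Taf7l, Nxf7 and Rhox5, which have known expression in germ cells or early embryos, were among those higher. They were picked from the 59 after their values were seen, and the share of such genes was not counted. Nxf7 was among the genes at least 4-fold above all other clones in KO 1.

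To set the KO difference in iPSC clones beside that in ESCs, which share no library with them, the same contrast was taken in ESCs and the difference of the contrasts was tested. In ESCs, 5.82% of 16863 tested genes were higher and 4.29% lower by FDR. Of the 329 genes that met the 3 criteria in iPSCs, 100 also passed in ESCs in the same direction (30.4%) and none in the opposite one. The 329 were chosen by their iPSC values, which the test of the difference uses again, so the choice favours a difference. The interaction passed for 242 genes (1.47%), 50 of them among the 329, and the iPSC difference was the more positive in 152 of the 242. It passed for 49 genes in the fit of the 12 iPSC and ESC libraries alone and for 63 with edgeR. Leaving out 1 iPSC library moved it between 149 (without KO 1) and 605 (without KO 3), with 409, 559 and 446 without Control 1, Control 3 and KO 2. For Id2, Map2, Stk31, Nupr1 and Sp5, the ESC values were log2FC −0.87 (FDR 7.62e-10), log2FC −0.93 (FDR 1.46e-09), log2FC 1.01 (FDR 1.46e-06), log2FC 2.43 (FDR 6.62e-18) and log2FC −2.25 (FDR 0.000103), and the interaction did not pass. ATF4 response genes were higher in 35 of 42 in ESCs, with a median log2FC of 0.85, and germline genes in 8 of 30, with a median of 0.37. Other lists had calls in the opposite direction. KRAB corepressor and heterochromatin genes had 7 higher and 1 lower of 27 in ESCs, against 0 and 6 in iPSCs, and glycolysis and hypoxia genes 2 higher and 8 lower of 35, against 10 and 2 of 36. Cholesterol synthesis genes had 6 lower of 23 in ESCs. Differences between lists were not tested. Zc3hav1 did differ, with log2FC 0.10 (FDR 0.76) in ESCs and an interaction of 1.64 (FDR 2.52e-09). Its ESC counts were 531, 579 and 585 in WT and 569, 662 and 589 in KO. The interaction also passed for Igfbp4, Crxos and Tfpi, with ESC values of log2FC 0.57 (FDR 0.213), log2FC 0.61 (FDR 0.285) and log2FC 0.11 (FDR 0.8). None of the primitive endoderm genes passed in ESCs, out of 14 tested.

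**Figure D5:**
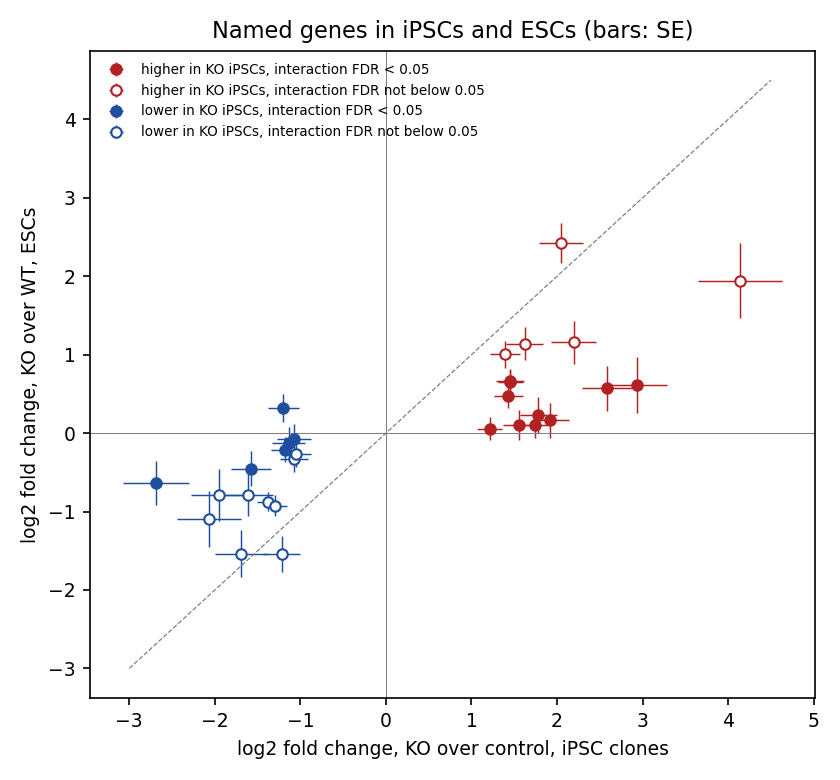
log2FC of KO over control in iPSC clones (x axis) against KO over WT in ESCs (y axis) for the 15 higher and 15 lower genes with the lowest FDR; bars are SE, filled points have an interaction FDR below 0.05 and the dashed line marks equal values. Nupr1 lies close to the dashed line (2.04 and 2.43), while Zc3hav1 (1.74 and 0.10) and Fgf18 (−2.69 and −0.63) lie away from it.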

How the data were processed

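RNA-seq libraries were prepared from 36 samples with a stranded mRNA kit, and 6 of them, 3 KO and 3 control iPSC clones, are compared here. The authors trimmed reads with Cutadapt, aligned them with STAR to GRCm38 and counted them per gene with Rsubread, and deposited 1 table of raw counts per gene; the strand setting of the counting is not given in the sources used here. Samples were grouped by their labels. DESeq2 1.42.0 (R 4.3.3) was run on the deposited counts with a 12-group design and default size factors, Wald test and Benjamini-Hochberg FDR over all tested genes, and again on the 6 iPSC libraries. The fits were tested on simulated data for the iPSC comparison with 200 of 21442 genes changed 3-fold. In the 36-library fit 193 were recovered with 9 false calls, and in the 6-library fit 191 with 19 false calls. Each simulation drew counts with the dispersion estimated by the fit it tested, without outlying clones or a raised chromosome. It therefore cannot show which fit treats the spread between clones correctly, and its false calls do not rank the fits. Total counts were 29670475 to 34537627 per iPSC clone. Replicate clones differed by more than counting noise in every pair.

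Named genes were Zfp266, the 15 higher and 15 lower genes with the lowest FDR that met 3 criteria (DEG, FDR < 0.05 in the 6-library fit, no overlap between groups), up to 2 genes per list with the greatest change in both fits and any needed to describe counts of 5 or fewer, up to 3 genes per clone that stood at least 4-fold apart from all other clones, and Pou5f1, Sox2, Nanog and Esrrb. Further genes were named after their values were seen. The comparison, the 29 gene lists (772 genes in the table) and the naming rule were chosen with earlier results of these data known. List symbols outside the table were not analysed here. The values of 1 further list gene are not reported here. GENCODE annotation of GRCm38 matched 21417 of 21442 gene identifiers, and promoters came from RefSeq. Alternatives were edgeR 4.0.16 quasi-likelihood tests on 36 and 6 libraries, TMM factors, other filters, the 12 iPSC and ESC libraries, omission of each clone, of chromosome 8 genes and of both clones with raised chromosome 8, a threshold on the fold inside the test, and a replicate block. Omission of clones from the 6-library fit was added after the data were seen.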

Additional observations from a re-analysis of the deposited data

Results flagged for a closer look

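The KO difference in iPSC clones differed from that in ESCs for 24 of the 76 genes chosen by the naming rule. This was by the DESeq2 interaction test of the 36-library fit. Among all 16447 genes tested, 242 passed (1.47%), with 49 in the fit of the 12 iPSC and ESC libraries and 63 with edgeR. The 24 genes were named for their iPSC values, which this test uses again, so the choice favours a difference. The values below are the iPSC log2FC minus the ESC log2FC, with the FDR of that test. The difference was positive for Zc3hav1 (1.64, FDR 2.52e-09), Atp9a (0.80, FDR 0.0155), Lpar1 (0.79, FDR 0.039), Igfbp4 (2.02, FDR 0.000534), Tinagl1 (1.76, FDR 3.01e-05), P2rx4 (0.96, FDR 0.00709), Crxos (2.32, FDR 0.00116), Acaa2 (1.16, FDR 3.33e-05), Elf4 (1.55, FDR 0.000534), Tfpi (1.45, FDR 7.82e-05), Hnf4a (3.25, FDR 0.0347), Col4a2 (2.94, FDR 0.00483), P4ha2 (1.32, FDR 0.0163), Col5a2 (2.78, FDR 6.3e-06), Cdc42ep1 (1.55, FDR 0.00332), Cubn (4.64, FDR 0.0307) and Gab2 (3.73, FDR 0.0452). It was negative for Kctd1 (−0.97, FDR 0.00472), Fgf18 (−2.06, FDR 0.00379), Tmem151a (−1.13, FDR 0.04), Napsa (−1.52, FDR 6.3e-06), Fkbp10 (−1.02, FDR 0.0251), Tgm1 (−0.997, FDR 0.0355) and Mest (−0.93, FDR 0.0155). The values of Cubn and Gab2 rest on KO 1, and those of Col4a2 and Hnf4a belong to the list in which KO 1 was most often the highest clone. Exons of Mest, Col4a2, Kctd1, Napsa, Fkbp10 and Tgm1 overlap genes of the opposite strand.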

How the results depend on the processing

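The DEG count was 948 (831 higher, 117 lower). It was 342 (304 and 38) with the 6 iPSC libraries, 0 (0 and 0) with edgeR on the same libraries, and 22 (20 and 2) with the fold threshold inside the test. Leaving out both clones with raised chromosome 8 gave 213 lower DEGs. Omitting any 1 iPSC clone gave 511 to 1089 DEGs, 446 to 913 of them higher and 65 to 188 lower, and in the 6-library fit 98 (without KO 1) to 470, with 192 without Control 2. The interaction count was 242, and 49 in the 12 libraries, 63 with edgeR on 36 libraries, 554 without the clones with raised chromosome 8, and 149 to 605 when 1 iPSC clone was omitted. The cause was not tested. Same-numbered control and KO clones deviated together with correlations of −0.18, 0.03 and 0.34, and differently numbered ones with −0.30 to 0.24. With 3 clones per group, these values cannot decide whether the numbers pair the clones. A fit with replicate number as a block gave 311 DEGs (263 higher and 48 lower), and Zfp266 then had log2FC −0.42 and did not pass. Zfp266 had −0.41 and did not pass with edgeR on 6 libraries. With the block Crispld2 turned to −0.039, and it was −1.54 to 2.34 when 1 clone was omitted, lowest without KO 2, and −1.81 without the clones with raised chromosome 8. Sox2, not past the threshold, was −0.050 to 0.088 when 1 clone was omitted, lowest without KO 3. With a pseudocount of 1, genes standing apart above and below the other clones numbered 3 and 18 in Control 1, 2 and 154 in Control 2, 1 and 10 in Control 3, 41 and 18 in KO 1, 9 and 6 in KO 2, and 15 and 9 in KO 3. Of the values for named genes under all alternatives, 847 kept direction and side of the threshold, 92 lost it, 17 gained it and 4 turned. Of the list counts, 512 stayed within 1.5 times and 184 did not. At this depth a count of 0 allows up to 2.58 to 3.03 normalised counts.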
